A study of Mus musculus with 4 samples.

Results

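The genes described here carry the prolactin and growth hormone signal from the cell surface to the nucleus. They are the receptors *Prlr* and *Ghr*, the kinase *Jak2*, the transcription factors *Stat5a* and *Stat5b*, and the feedback genes *Socs2* and *Cish*. The members were chosen by symbol, and all 7 were found among the 52636 genes of the deposited table, 32271 of which had at least 1 molecule counted. Prolactin and growth hormone bind related single-pass receptors that have no kinase of their own and act through the tyrosine kinase JAK2 bound to their tails. JAK2 phosphorylates the receptor and STAT5A or STAT5B, which pair, enter the nucleus and bind DNA, and among the genes they switch on are *Cish* and *Socs2*, whose products dampen the same receptors. In the mammary gland this pathway is best known for side branching and for the alveolar differentiation and milk production of pregnancy and lactation.

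The study asked how the V943R change in ERBB3, which impairs the ability of this receptor to activate its partner ERBB2, affects luminal cells of the mammary gland. Thoracic and abdominal glands of 6-week-old C57BL/6N mice were used, and the genotypes were ErbB3+/+;MMTV-Cre (WT) and ErbB3V943R/V943R;MMTV-Cre (mutant), so both carried the Cre transgene that is driven by the MMTV promoter in mammary epithelium. Glands from 3 animals of a genotype were pooled, luminal cells were sorted by FACS, and 2 10× Chromium 3′ libraries were sequenced per genotype, here called A and B. The authors placed each cell in one of 13 clusters and labelled clusters 1 and 2 as luminal progenitor (LP), cluster 3 as luminal intermediate (LI) and clusters 4 to 11 as mature luminal (ML), whereas clusters 12 and 13 were rare cells.

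The table held 18638 WT and 13801 mutant cells. Counts are unique molecular identifiers (UMIs, 1 per captured mRNA molecule), which summed to between 30019745 and 38009351 per library, and 511 of the 31923 distinct cell barcodes occurred in more than 1 library. Levels are UMIs of a gene per 1000000 UMIs of the same cells (CPM). The 95% intervals, which were taken from the Poisson distribution for levels, from the exact conditional binomial distribution for log2 ratios and by the Clopper-Pearson method for shares of cells, cover counting error only. With 1 pool of mice per genotype, effects of the pool and of the genotype cannot be told apart, and no p-value is given. A gene was called different between genotypes when the summed levels differed at least 1.5-fold and the mutant libraries both lay beyond the WT libraries. The genotype with more UMIs of the gene, whether or not its level was the higher one, also needed at least 50 UMIs. *Erbb3* itself stood at 59.3 and 61.1 CPM in WT ML cells and at 27.1 and 28.6 CPM in mutant ML cells.

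The members lie on 5 chromosomes (GRCm38, gene bounds of GENCODE M21). *Prlr* (ENSMUSG00000005268) spans chr15:10177238-10349180 on the plus strand, and *Ghr* (ENSMUSG00000055737) lies 6.59 Mb before it at chr15:3317760-3583492 on the minus strand. *Stat5b* (ENSMUSG00000020919, chr11:100780731-100850724, minus strand) and *Stat5a* (ENSMUSG00000004043, chr11:100859351-100885169, plus strand) are neighbours that point away from each other, with 8626 bases between them. *Jak2* (ENSMUSG00000024789) is at chr19:29251828-29313080 on the plus strand, *Socs2* (ENSMUSG00000020027) at chr10:95385362-95417180 on the minus strand, and *Cish* (ENSMUSG00000032578) at chr9:107296026-107302784 on the plus strand. *Stat5a* and *Stat5b* encode very similar proteins, and how reads that match both genes were counted is not given in the sources used here.

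STAT5 dimers bind the palindrome TTCNNNGAA, which reads the same on both strands. It was searched for in the RefSeq promoters (GRCm38.p6, 250 bases before to 50 after each start), which were given for 6 of the 7 members, 11 promoters in all, and not for *Socs2*. The motif stood in the *Cish* promoter and in 1 of the 3 *Prlr* promoters. The *Cish* promoter held 2 copies that do not overlap, the first at the start itself and the second 11 bases after it. Of all 32851 promoters of this length, 8.30% held at least 1 copy and 0.457% held 2 or more. Both stretches are shown with the motif in capitals. *Cish* was the member that differed most between genotypes in ML and LI cells, and *Prlr* the one that marks the ML class. The *Cish* stretch is chr9:107296559-107296688 (plus strand, from 100 bases before the start to 30 bases into the transcript) and the *Prlr* stretch is chr15:10223746-10223845 (plus strand, with the motif 110 bases before the start).
Cish: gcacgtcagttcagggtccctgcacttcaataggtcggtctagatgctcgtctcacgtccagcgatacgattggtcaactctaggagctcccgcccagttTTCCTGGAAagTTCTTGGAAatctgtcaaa
Prlr: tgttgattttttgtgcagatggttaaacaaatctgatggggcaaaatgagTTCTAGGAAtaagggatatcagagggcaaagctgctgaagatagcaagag
A match is a description of the letters in the window and not a measurement of binding.

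Among the receptors, *Prlr* and *Ghr* stood at opposite ends of the luminal lineage. *Prlr*, the prolactin receptor, was at 2080 and 2167 CPM in the ML cells of WT libraries A and B and at 261 and 263 CPM in the LP cells. In the mutant libraries it was at 1858 and 2050 CPM in ML cells and at 232 and 247 CPM in LP cells. The ML level was above the LP level in all 4 libraries, with a log2 ratio of 3.02 (2.96 to 3.08) for WT and of 3.03 (2.97 to 3.09) for the mutant. The authors used *Prlr* together with *Kit* to name the classes, so this ratio describes the labels and tests nothing. Of the other markers, the 8 genes of the LP list summed to 22446 CPM in WT LP cells and 226 CPM in WT ML cells, and the 10 genes of the ML list, *Prlr* included, to 1831 and 12709 CPM.

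*Ghr*, the growth hormone receptor, ran the other way. It was at 27.5 and 35.0 CPM in WT LP cells and at 6.11 and 7.05 CPM in WT ML cells. In the mutant it was at 32.1 and 30.9 CPM in LP cells and at 6.98 and 5.90 CPM in ML cells. The LP level was above the ML level in all 4 libraries, and the log2 ratio of ML over LP was −2.25 (−2.48 to −2.02) for WT and −2.29 (−2.54 to −2.05) for the mutant. These ratios rest on 268 UMIs in WT LP cells and 375 in WT ML cells.

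The kinase and STAT5A followed *Prlr* toward the ML cells, but with a smaller difference. *Jak2* was at 15.4 and 15.2 CPM in WT LP cells and at 28.5 and 26.6 CPM in WT ML cells, giving a log2 ratio of 0.85 (95% interval 0.59 to 1.12). *Stat5a* was at 85.5 and 93.2 CPM in WT LP cells and at 160 and 164 CPM in WT ML cells, giving a log2 ratio of 0.86 (95% interval 0.75 to 0.96). The LP and ML libraries did not overlap for either gene. *Stat5b* had nearly the same level in both classes, 31.7 and 31.7 CPM in WT LP cells and 32.6 and 32.7 CPM in WT ML cells, giving a log2 ratio of 0.04 (95% interval −0.14 to 0.23).

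Of the feedback genes, *Socs2*, a SOCS-box protein that limits growth hormone signalling, was higher in LP cells. It was at 28.5 and 33.9 CPM in WT LP cells and at 20.3 and 23.1 CPM in WT ML cells, giving a log2 ratio of −0.53 (95% interval −0.72 to −0.33) that fell short of 1.5-fold. *Cish*, a SOCS-box protein that binds phosphorylated cytokine receptors, was at 25.5 and 23.0 CPM in WT LP cells and at 25.6 and 27.6 CPM in WT ML cells, giving a log2 ratio of 0.14 (95% interval −0.07 to 0.36). In the mutant the *Cish* ratio of ML over LP was 0.80 (0.60 to 1.01).

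By the same 1.5-fold rule applied between the classes, 3 of the 7 members were higher in ML and 1 was higher in LP in WT, where 16% and 24.7% of all genes tested met the rule in these directions. In the mutant 4 members were higher in ML and 1 in LP, against 15.5% and 26.1% of all genes. Clusters were drawn from the same values, so these counts are descriptions. When TMM factors replaced total UMIs, the median gene moved by 0.28 in WT and 0.32 in the mutant on the log2 scale of ML over LP, and each member moved by the same amount. With these factors *Stat5b* in the mutant changed sign from −0.07 to 0.25.

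**Figure D1:**
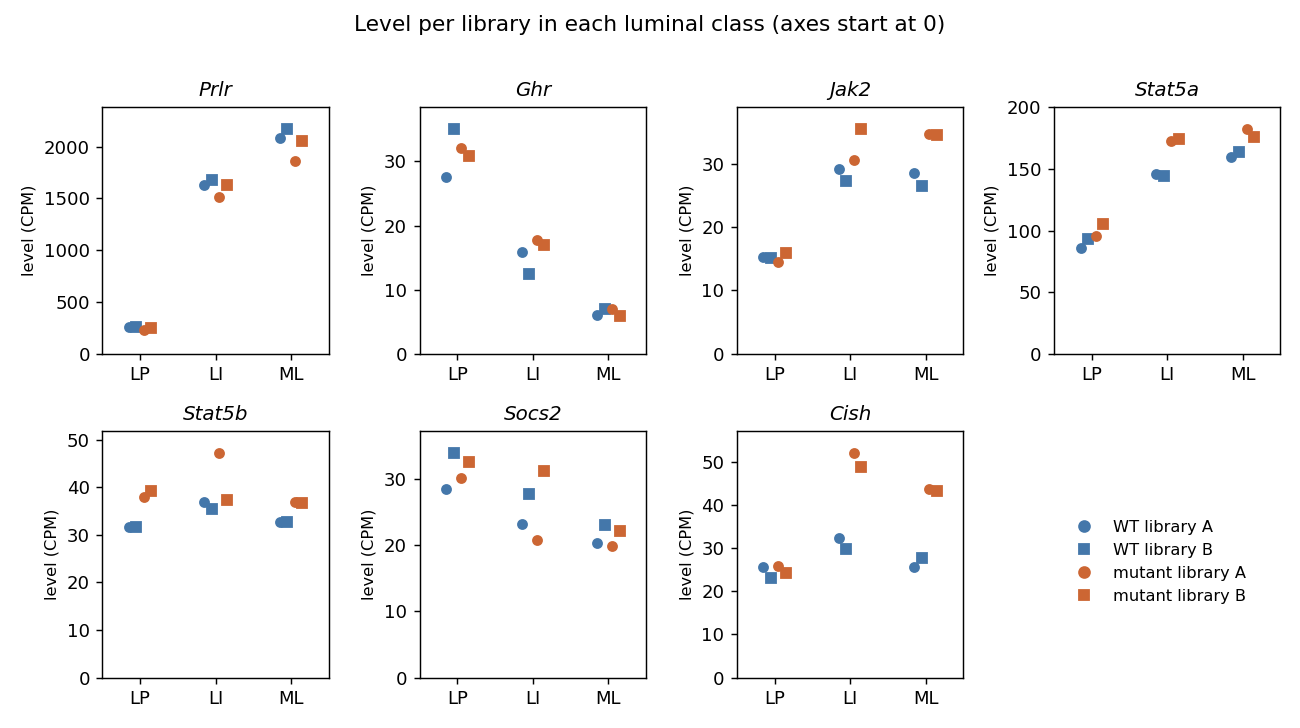
Level of each member in CPM (vertical axes, linear and starting at 0) in LP, LI and ML cells, with 1 point per library, blue for WT and orange for mutant. *Prlr*, *Jak2* and *Stat5a* were higher in ML than in LP cells and *Ghr* was lower, and the *Cish* points of the mutant stood above those of WT in LI and ML cells but not in LP cells.

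RNA set free by broken cells can give UMIs in cells that do not express a gene, so the shares of cells with a *Prlr* UMI are given beside those of the rare clusters. At least 1 *Prlr* UMI was found in 27.4% (25.8% to 29.0%) of WT LP cells, 34.9% of the cells of cluster 12 and 31.3% of those of cluster 13, which had medians of 2018, 1985 and 1899 UMIs per cell. After each cell was thinned to 1000 UMIs, which left out 32 of 3181 WT LP cells and 12 of 14188 WT ML cells, the shares were 15.3% in LP, 20.9% in cluster 12 and 21.7% in cluster 13, against 83.7% in ML cells. The *Prlr* level of LP cells was 12.3% of that of ML cells, and for the other 9 genes of the ML marker list this figure ran from 9.26% to 23.6%. In the mutant at least 1 *Prlr* UMI was found in 25.9% (24.3% to 27.4%) of LP cells, 12.1% (3.40% to 28.2%) of the 33 cells of cluster 12 and 27.2% (17.9% to 38.2%) of the 81 cells of cluster 13, and the shares at 1000 UMIs were 14.1%, 9.09% and 24.7%. By point values the LP share was below both rare clusters in WT, which had 43 and 83 cells, and between them in the mutant. In WT library A, without thinning, clusters 12 and 13 had 31.6% (12.6% to 56.6%) and 26.7% (12.3% to 45.9%), beside 26.2% in LP. In library B they had 37.5% (18.8% to 59.4%) and 34.0% (21.5% to 48.3%), beside 28.6%. These intervals and those of the mutant include the LP shares, so no order is shown. The ML marker list summed to 4019 and 5806 CPM in WT clusters 12 and 13 and to 1831 CPM in LP cells. How much of the *Prlr* signal of LP cells is free RNA was not tested.

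*Ghr* was found in few cells. At least 1 *Ghr* UMI was found in 7.89% (6.98% to 8.88%) of WT LP cells, 2.51% (2.26% to 2.78%) of WT ML cells, which had more UMIs each, and 1 of the 83 cells of cluster 13 (1.20%, 0.0305% to 6.53%). At 1000 UMIs per cell the shares were 3.37% in LP, 0.635% in ML and 1.20% in cluster 13. With 1 cell, cluster 13 is too small to set a background for ML cells, and whether their *Ghr* UMIs are free RNA was not tested. Cluster 12, in which the fibroblast markers summed to 7869 CPM in WT, had 6 *Ghr* UMIs, or 53.5 CPM (19.6 to 116).

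Within the classes the members also differed from cluster to cluster. In WT *Prlr* was highest in clusters 9 (2717 CPM) and 8 (2713 CPM), which overlapped in their libraries, followed by clusters 10 (2578 CPM) and 11 (2566 CPM), which also overlapped. The 2 ML clusters with the lowest level were 5 (1168 CPM) and 6 (1104 CPM), which the authors set apart by a proliferation marker. In these clusters *Prlr* was at less than the level of LI cells (1655 CPM). Within LP the clusters stood at 256 CPM (cluster 1) and 281 CPM (cluster 2).

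*Ghr* was at 35.7 CPM in cluster 1, which is the larger LP cluster, and at 17.6 CPM in cluster 2, which the authors set apart by the same proliferation marker. The WT libraries of these clusters did not overlap, with 30.7 and 39.9 CPM in cluster 1 and 17.8 and 17.4 CPM in cluster 2. In the mutant the clusters were closer, at 32.2 and 28.8 CPM, and cluster 2 stood at 30.3 and 27.6 CPM, giving a log2 ratio of mutant over WT of 0.71 (95% interval 0.08 to 1.36) from 35 and 58 UMIs. Cluster 8 had the highest *Ghr* level of the ML clusters (10.4 CPM) and cluster 5 the lowest (3.18 CPM, from 14 UMIs), and in the mutant they stood at 10.4 and 3.35 CPM.

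*Jak2* was at 35.2 CPM in cluster 8 and at 33.1 CPM in cluster 10, and its lowest ML levels were in clusters 6 (19.3 CPM) and 5 (17.5 CPM). *Stat5a* was highest in clusters 10 (208 CPM) and 9 (202 CPM) and lowest among ML clusters in cluster 11 (116 CPM), whose WT libraries, at 116 and 116 CPM, lay below those of the other ML clusters. *Stat5b* varied least, from 28.6 CPM in cluster 11 to 44.9 CPM in cluster 9 among the ML clusters, and the WT libraries of each luminal cluster overlapped with those of the next luminal cluster in the order.

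*Socs2* had its highest WT levels in the rare clusters. It was at 93.4 CPM (60.4 to 138) in cluster 13, where immune markers summed to 19449 CPM. In cluster 12 *Socs2* was at 89.1 CPM (42.7 to 164). Among luminal clusters it ran from 33.2 CPM in cluster 2 to 12.1 CPM in cluster 11. Both libraries of cluster 11 lay below those of cluster 7, the next in the order at 17.7 CPM. *Cish* in the luminal clusters of WT ran from 33.5 CPM in cluster 7 to 16.8 CPM in cluster 9, which rested on 12 UMIs and differed widely between libraries (26.0 and 3.44 CPM). In WT cluster 12 it stood at 44.6 CPM (14.5 to 104) from 5 UMIs.

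**Figure D2:**
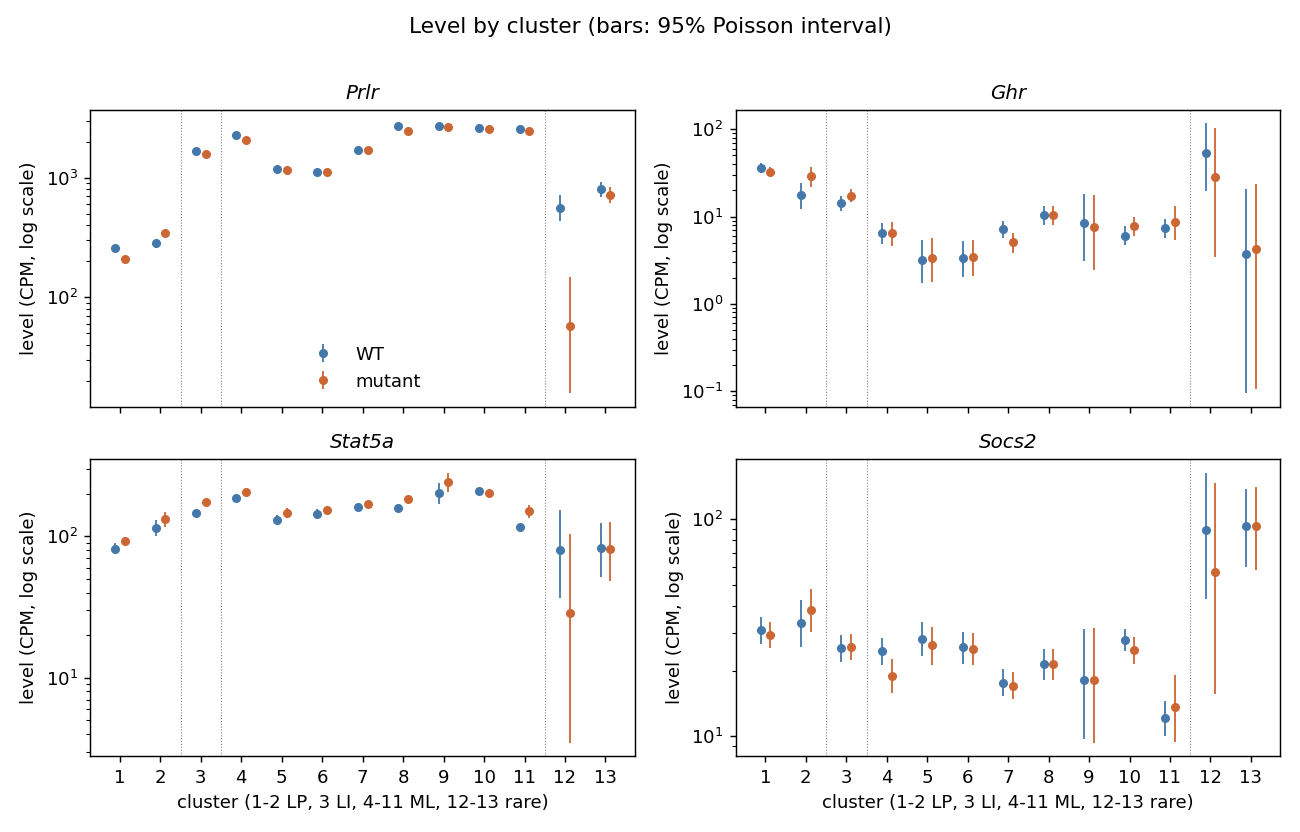
Levels of *Prlr*, *Ghr*, *Stat5a* and *Socs2* (CPM, log scale) in clusters 1 to 13, summed over the libraries of WT (blue) and mutant (orange), with 95% Poisson intervals as bars and dotted lines between LP, LI, ML and rare clusters. *Prlr* stood lower in clusters 5 and 6 than in the other ML clusters, *Ghr* was highest among luminal clusters in cluster 1, and *Stat5a* and *Socs2* were low in cluster 11 in WT.

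Between genotypes, *Cish* was the member that differed most in ML and LI cells. In ML cells it was at 25.6 and 27.6 CPM in both WT libraries and at 43.7 and 43.1 CPM in the mutant libraries, from 1512 and 1982 UMIs. Both mutant libraries were well above both WT libraries. The mutant level was 1.63-fold that of WT, a log2 ratio of 0.70 (0.61 to 0.80), and 98.3% of the genes tested in ML cells had a lower ratio. In LI cells *Cish* was at 32.4 and 29.7 CPM in WT and at 52.0 and 48.7 CPM in the mutant, giving a log2 ratio of 0.70 (95% interval 0.46 to 0.94). In LP cells it was at 25.5 and 23.0 CPM in WT and at 25.8 and 24.1 CPM in the mutant, with overlapping libraries and a log2 ratio of 0.04 (−0.24 to 0.32). The ML ratio exceeded the LP ratio by 0.66 on the log2 scale (0.36 to 0.96, exact conditional interval of the odds ratio of the 4 sums), and over the 4 pairs of 1 mutant and 1 WT library the difference ran from 0.50 to 0.83.

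The rule called 1 of the 7 members higher in ML cells and 0 lower, and this member was *Cish*. Of the 15157 genes tested in ML cells, 2.86% were called higher and 1.57% lower in the mutant. In LI cells *Cish* was again the 1 member called, where 2.83% of genes were called higher and 1.03% lower. No member was called in LP cells (2.23% of genes higher and 0.606% lower) or in cluster 11 (2.7% higher and 3.17% lower). Among the other clusters the rule called *Cish* higher in the ML clusters 4, 8 and 10, where 2.52%, 2.17% and 2.35% of genes were called higher. Each library was also left out in turn, which was decided once the values were known. The *Cish* call held in clusters 4 and 10, and in cluster 8 it was lost without mutant library A (1.35-fold) or WT library A (1.46-fold). The rule also called *Ghr* higher in the LP cluster 2 (1.79% of genes) and *Prlr* lower in the rare cluster 12, at 482 and 616 CPM in WT and 30.0 and 82.1 CPM in the mutant. In the same cells the ML marker list went from 4019 CPM in WT to 1991 CPM in the mutant. These sums include *Prlr* itself, at 561 CPM in WT and 57.3 CPM in the mutant. The fibroblast markers went from 7869 to 14251 CPM, the endothelial markers from 3253 to 5271 CPM and the basal markers from 544 to 43.0 CPM. The WT basal sum came mostly from library B (856 CPM, 57 UMIs), with 87.6 CPM in library A (4 UMIs). The mutant libraries were at 0 and 82.1 CPM. The part of these markers in the *Prlr* difference was not tested. This difference rests on 63 UMIs in WT and, in the mutant, 1 UMI in library A (0.760 to 167 CPM) and 3 in library B (16.9 to 240 CPM), and 17.1% of the 298 genes tested in cluster 12 were called lower. The calls of *Ghr* in cluster 2 and *Prlr* in cluster 12 fell under the minimum of 50 UMIs without either mutant library and without either WT library, respectively. Both mutant libraries lay on 1 side of both WT libraries for 5 members in ML, 6 in LI, 3 in LP and 5 in cluster 11, and for 54.3%, 45.7%, 41.1% and 43.7% of all genes tested in the same cells. The median log2 ratio of the members was 0.14 in ML, 0.23 in LI and 0.01 in LP, and that of all genes tested lay between 0.00 and 0.02 in these classes.

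**Figure D3:**
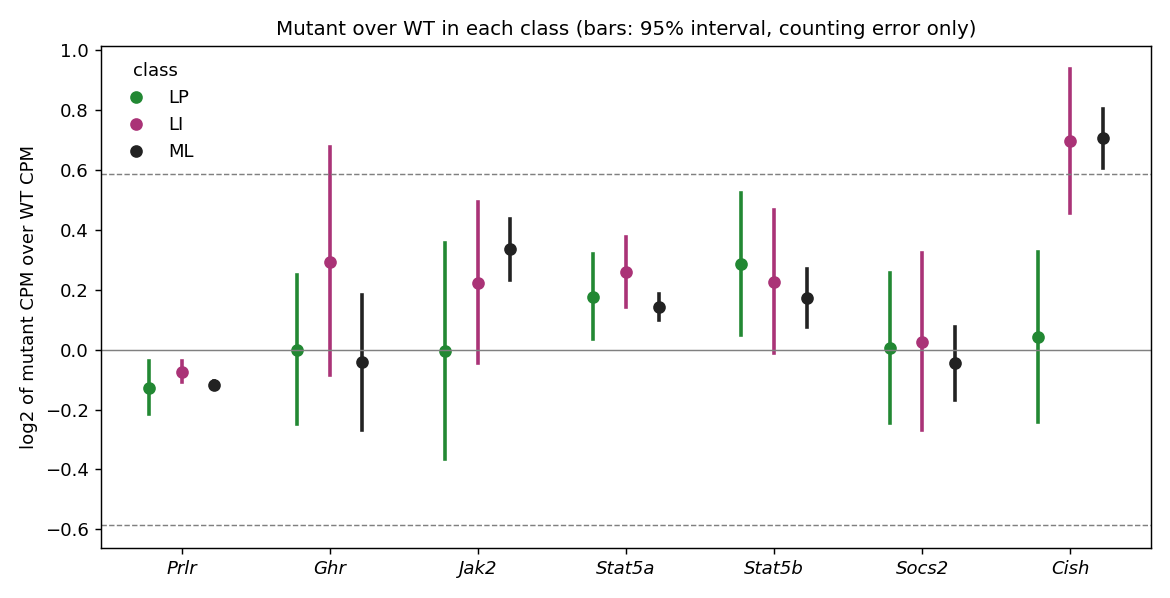
log2 of the mutant level over the WT level for each member in LP (green), LI (purple) and ML (black) cells, with 95% intervals that cover counting error only as bars, 0 as a solid line and 1.5-fold as dashed lines. *Cish* in LI and ML cells, at 0.70, is beyond the 1.5-fold line, whereas the other ratios lie between −0.13 and 0.33.

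*Cish* was higher in the mutant in each of the 8 ML clusters, and both mutant libraries were above both WT libraries in all 8. These clusters come from the same pools, so they are not independent repeats. Libraries were apart in either direction for 54.3% of all genes tested in ML cells and for 43.7% in cluster 11. How many other genes were apart in all 8 clusters was not tested. The log2 ratio ran from 0.31 in cluster 6 to 1.73 in cluster 9, where it rested on 12 and 37 UMIs and the WT libraries stood far apart. With these counts *Cish* in cluster 9 fell under the minimum UMIs of the rule. The large clusters 10 and 7 gave 0.85 (0.62 to 1.08) and 0.54 (0.35 to 0.73). In cluster 10 *Cish* was at 26.4 and 24.6 CPM in WT and at 43.7 and 47.9 CPM in the mutant. In cluster 11, which held 2863 WT and 670 mutant cells, it was at 22.8 and 23.3 CPM in WT and at 37.1 and 29.3 CPM in the mutant, giving a log2 ratio of 0.51 (95% interval 0.12 to 0.89). The LP clusters 1 and 2 gave −0.03 (−0.35 to 0.29) and 0.33 (−0.33 to 0.99), the second from 37 and 47 UMIs.

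**Figure D4:**
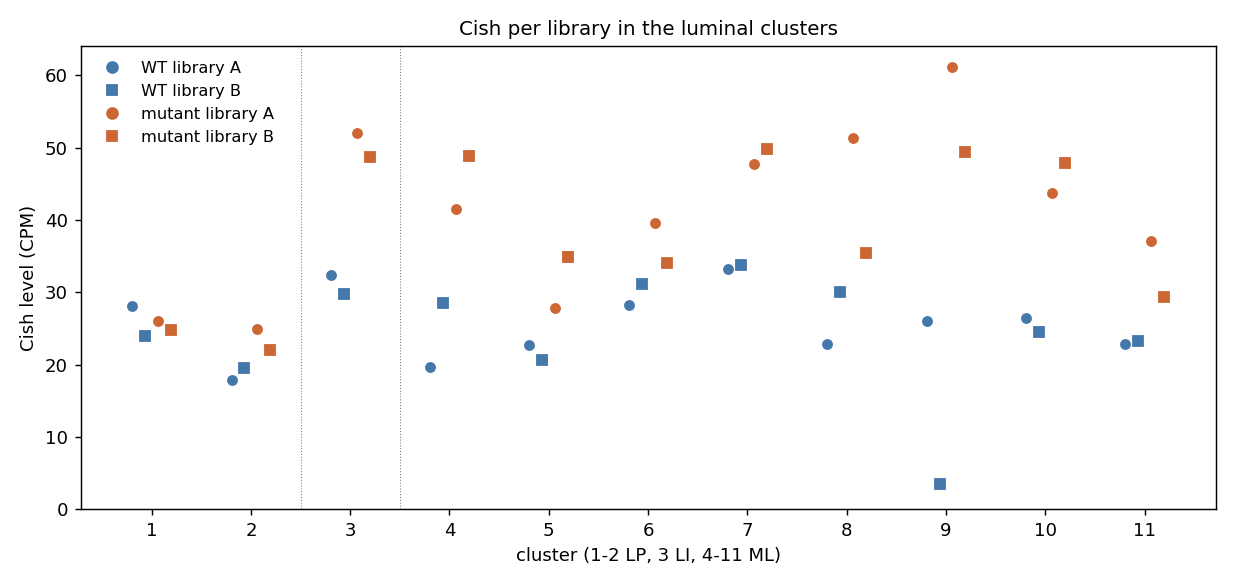
*Cish* level (CPM, linear axis starting at 0) in the 11 luminal clusters, 1 point per library, blue for WT and orange for mutant, with dotted lines between LP, LI and ML clusters. The orange points lie above the blue points in cluster 3 and in the 8 ML clusters, with 1 WT library at 3.44 CPM in cluster 9, and also in cluster 2 (24.9 and 22.1 against 17.8 and 19.5 CPM), whereas the points mix in cluster 1.

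The difference was also present in the number of cells with a *Cish* UMI. In ML cells thinned to 1000 UMIs the share of the WT libraries was 2.38% and 2.42% and that of the mutant libraries 4.40% and 3.97%, and without thinning it was 9.67% (9.19% to 10.2%) for WT and 17.0% (16.3% to 17.8%) for the mutant. For LP cells the thinned share stood at 2.19% (WT) and 2.14% (mutant), and thinning left out 173 LP and 74 ML cells of the mutant. Thinning matters here because mutant ML cells had a median of 4069.5 UMIs and WT ML cells 3508. When the ML clusters were given the same weights in both genotypes, the log2 ratio was 0.66.

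Other measures differed between the genotypes in ML cells alongside *Cish*. The summed level of the 6 genes of dissociation stress (*Fos*, *Jun*, *Egr1*, *Hspa1a*, *Hspa1b* and *Atf3*) ran from 14504 to 15085 CPM in WT and from 12038 to 12681 CPM in the mutant libraries. It was also lower in LP cells, at 17572 to 18346 CPM in WT and 14223 to 14483 CPM in the mutant, where *Cish* did not differ beyond the spread of its libraries. The 6 fibroblast markers summed to 14.4 to 15.2 CPM in WT and 4.68 to 5.52 CPM in mutant ML cells, and the 5 proliferation markers to 258 to 269 CPM and 282 to 299 CPM. Their part in the *Cish* result was not tested.

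*Jak2* was the member with the next largest difference in ML cells. It was at 28.5 and 26.6 CPM in both WT libraries and at 34.7 and 34.6 CPM in the mutant libraries, giving a log2 ratio of 0.33 (95% interval 0.23 to 0.44), which is below 1.5-fold. Both mutant libraries were above both WT libraries, as they were in 7 of the 8 ML clusters, which come from the same pools. Cluster 9, among these 7, rested on 21 and 31 UMIs. Libraries were apart in either direction for 54.3% of all genes tested in ML cells. In LP cells *Jak2* was at 15.4 and 15.2 CPM in WT and at 14.4 and 15.9 CPM in the mutant, giving a log2 ratio of 0.00 (95% interval −0.37 to 0.36). The difference between the ML and LP ratios was 0.34, with an interval of −0.04 to 0.71 that includes 0.

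*Stat5a* and *Stat5b* were slightly higher in the mutant in each class. In ML cells *Stat5a* was at 160 and 164 CPM in WT and at 182 and 176 CPM in the mutant, giving a log2 ratio of 0.14 (95% interval 0.10 to 0.19). The ratio was 0.26 (0.14 to 0.38) in LI and 0.18 (0.03 to 0.32) in LP, and the libraries of the genotypes did not overlap in any of the 3 classes. Without cluster 11, which held a smaller share of mutant cells, the ML ratio of *Stat5a* was 0.08 (0.03 to 0.12), and cluster 10 gave −0.04 (−0.14 to 0.05). *Stat5a* differed most in cluster 11, where it was at 116 and 116 CPM in WT and at 142 and 158 CPM in the mutant, giving a log2 ratio of 0.38 (95% interval 0.20 to 0.55). *Stat5b* was at 32.6 and 32.7 CPM in WT and at 36.9 and 36.7 CPM in mutant ML cells, giving a log2 ratio of 0.17 (95% interval 0.08 to 0.27). Its mutant libraries lay above its WT libraries in 4 of the 8 ML clusters. In LI cells *Stat5b* was at 36.9 and 35.5 CPM in WT and at 47.2 and 37.3 CPM in the mutant. The LI ratio was 0.23, with an interval of −0.01 to 0.46 that includes 0. In LP cells its ratio was 0.28 (0.05 to 0.52), with 0.39 (0.12 to 0.66) in cluster 1 and −0.04 (−0.53 to 0.45) in cluster 2. None of these differences reached 1.5-fold.

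*Prlr* was slightly lower in the mutant, with log2 ratios of −0.12 (−0.13 to −0.11) in ML, −0.07 (−0.11 to −0.04) in LI and −0.13 (−0.21 to −0.04) in LP, and both mutant libraries were below both WT libraries in each class. Without the cells in the top 6% of doublet scores the LP ratio was −0.28. The gap was narrow, since in LI cells mutant library B and WT library A both stood at 1632 CPM when rounded. Mutant library B, at 2050 CPM in ML cells, was close to WT library A at 2080 CPM. The ratio within single ML clusters ran from −0.13 to 0.02, and without cluster 11 the ML ratio was −0.08 and the libraries overlapped. With the ML clusters given the same weights in both genotypes it was −0.06. The LP clusters moved in opposite directions, by −0.29 (−0.39 to −0.19) in cluster 1 and by 0.28 (0.11 to 0.44) in cluster 2, and their libraries did not overlap.

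The libraries of the genotypes overlapped for *Ghr* and *Socs2* in ML and LP cells. *Ghr* gave −0.04 (−0.27 to 0.18) in ML and 0.00 (−0.25 to 0.25) in LP. In LI cells it was at 15.9 and 12.4 CPM in WT and at 17.8 and 16.9 CPM in the mutant, giving a log2 ratio of 0.29 (95% interval −0.09 to 0.67). *Socs2* gave −0.05 (−0.17 to 0.08) in ML and 0.01 (−0.24 to 0.25) in LP, from 20.3 and 23.1 CPM in WT and 19.9 and 22.1 CPM in mutant ML cells. Without cluster 11, where its level was lowest, the ML ratio of *Socs2* was −0.14 (−0.27 to −0.01) with overlapping libraries, and cluster 4 gave −0.38 (−0.71 to −0.05), also with overlapping libraries. Of the feedback genes, the interval of *Cish* in ML cells started at 0.61 and that of *Socs2* ended at 0.08.

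LI cells carry UMIs of LP and ML genes together. Their scores from a doublet caller were high, since 48.9% of cluster 3 fell in the top 6% of scores of a library. WT LI cells had a mean of 6472 UMIs, and the means of LP and ML cells sum to 6681. In the mutant the LI mean was 8155 UMIs and this sum was 7530.3. An equal mix of 1 LP and 1 ML cell of WT would have 1378 CPM of *Prlr*, 16.6 of *Ghr*, 133 of *Stat5a* and 25.6 of *Cish*, and LI cells had 1655, 14.2, 145 and 31.1 CPM. In the mutant the mix would have 36.6 CPM of *Cish* and LI cells had 50.4. Whether LI cells are doublets was not tested, and without this top 6% the *Cish* ratio in LI was 0.64.

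ML cells were also divided by the number of *Prlr* UMIs in each cell. At 1000 UMIs per cell, WT ML cells had a mean of 2.25 *Prlr* UMIs, 16.3% had none and 37.8% had 3 or more. *Stat5a* was found in 14.1% (12.7% to 15.6%) of cells with no *Prlr* UMI and in 14.6% (13.7% to 15.6%) of those with 3 or more. *Jak2* was found in 2.12% (1.58% to 2.80%) and 3.10% (2.65% to 3.60%), and *Cish* in 2.86% (2.22% to 3.63%) and 2.26% (1.88% to 2.69%), of the same cells. The *Jak2* share was higher at 3 or more *Prlr* UMIs than at none in each of the 4 libraries. All ML clusters were pooled here, and clusters 5 and 6 had the lowest ML levels of both genes in WT. The part of the cluster make-up in this was not tested. In the mutant *Cish* was found in 4.02% of cells with no *Prlr* UMI, 4.20% of those with 1 to 2 and 4.24% of those with 3 or more, so that its higher share was present at each *Prlr* level. These are descriptions over cells of a single pool.

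How often 2 members were found in the same ML cell was set beside the product of their shares. For *Prlr* with each of the other 6 members, the observed number over this product lay between 0.962 and 1.04 in WT, with mutant values of 0.918 to 1.05. Only 16.3% of WT and 18.3% of mutant ML cells had no *Prlr* UMI at this depth, so these ratios could not rise far above 1. They therefore cannot show that *Prlr* is independent of the other members. For *Prlr* and *Jak2* the ratio was 1.04 in WT and 1.05 in the mutant, and 1.03 and 1.03 when taken within clusters. *Prlr* and *Stat5a* were found together in 1712 WT cells, where the product gives 1706, and in 1259 mutant cells, where it gives 1255. *Stat5a* and *Stat5b* were found together in 82 WT cells (65.1 by the product) and 61 mutant cells (54.2). The mutant libraries differed in direction, with 24 cells (26.7 by the product) in library A and 37 cells (27.5) in library B. *Cish* and *Socs2* were found together in 5 WT cells (6.33) and 9 mutant cells (8.12), which is too few to compare.

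Over the 11 luminal clusters in both genotypes, the levels of some members ran in parallel. Pearson's r of log2(CPM + 1) over these 22 points, which share libraries and the authors' clustering, was 0.89 for *Jak2* and *Stat5a*, 0.83 for *Prlr* and *Jak2* and 0.80 for *Prlr* and *Stat5a*. The points include LP and ML clusters, whose class difference is given above. Among the ML clusters of WT, *Prlr* and *Stat5a* were both high in clusters 9 (2717 and 202 CPM) and 10 (2578 and 208 CPM). Cluster 11 had *Prlr* at 2566 CPM and the lowest ML level of *Stat5a*, at 116 CPM. Over all 11 clusters *Ghr* and *Socs2* ran against *Prlr*, with r of −0.62 and −0.69, and *Cish* and *Prlr* gave 0.36. Within the ML clusters of WT, *Ghr* and *Prlr* were both low in clusters 5 (3.18 and 1168 CPM) and 6 (3.39 and 1104 CPM). Both were high in cluster 8 (10.4 and 2713 CPM). In the mutant these clusters stood at 3.35 and 1149, 3.46 and 1121, and 10.4 and 2476 CPM. Clusters 10 and 7 of WT went the other way, with *Ghr* at 6.06 and 7.12 CPM and *Prlr* at 2578 and 1708 CPM. Among 8743 genes of at least 10 CPM over all cells, the genes with the most similar pattern to *Prlr* were *Cd164* (r of 0.99), *Cd200* (0.99) and *Ly6d* (0.99). For *Ghr* they were *Rab34*, *Sorbs2* and *Afap1* (0.95 each). For *Jak2* they were *Fcnaos* (0.96), *Gm37510* (0.94) and *Apc* (0.94), and for *Stat5a* *Plod1* (0.94), *Tmem86a* (0.92) and *Padi2* (0.92). *Stat5b* (*Myo5c*, *Notch3* and *Gm23935*) and *Socs2* (*Mrps6*, *Gpat4* and *Lgals1*) had looser partners, with r from 0.79 to 0.87, and *Cish* was most like *Rnaset2b* (0.90), *Rnaset2a* (0.86) and *Rpl24* (0.82). *Rnaset2b* and *Rnaset2a* are near-identical copies, so their counts are uncertain.

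The rest of the pathway was described by a list of ligands, other receptors that use JAK2 or STAT5, kinases, STATs, SOCS proteins, phosphatases and PIAS proteins, adaptors, and targets of STAT5 or prolactin in mammary epithelium, of which 73 genes besides the members were in the table. The ligand genes *Prl*, *Gh*, *Prl2c2* and *Prl3d1* had 0 UMIs in all 4 libraries, and 3 UMIs, taken as the limit that a count of 0 allows, would be 0.0411 CPM in WT and 0.0481 CPM in mutant cells. In ML cells 52 genes of the list had enough UMIs, 0 were called higher and 2 lower, beside 2.86% and 1.57% of all genes tested, and their median log2 ratio was 0.00. All 6 other SOCS genes had enough UMIs in ML cells and 0 were called, among them *Socs3*, at 1943 CPM in WT and 1785 CPM in the mutant. In LP cells *Socs3* was at 505 and 531 CPM in WT and at 372 and 389 CPM in the mutant, giving a log2 ratio of −0.44 (95% interval −0.51 to −0.38) that is below 1.5-fold. Of the 3 other kinases 0 were called in ML cells, where *Jak1* was at 66.0 CPM in WT and 58.6 CPM in the mutant. Of the 4 other STAT genes with enough UMIs in ML cells 0 were called. There *Stat3* was at 147 CPM in WT and 132 CPM in the mutant.

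The 2 genes called lower in ML cells were *Cav1*, which encodes caveolin and was at 17.8 and 11.6 CPM, giving a log2 ratio of −0.61 (95% interval −0.77 to −0.46), and *Lalba*, the lactalbumin gene, at 2.08 and 1.23 CPM, giving a log2 ratio of −0.76 (95% interval −1.25 to −0.29). The basal markers summed to 17.5 CPM in WT and 14.6 CPM in mutant ML cells and the fibroblast markers to 14.8 and 5.08 CPM, and their part in the *Cav1* result was not tested. The WT level of *Lalba* in LP cells was 231 CPM, and the LP marker list stood at 22446 CPM in LP and 226 CPM in ML cells, so the *Lalba* UMIs of ML cells are given as counted, 118 and 56, and how many came from LP cells was not tested. In LP cells 48 genes of the list had enough UMIs and 1 was called lower, beside 0.606% of all genes, and this was *Lalba*, at 194 and 265 CPM in WT and at 142 and 159 CPM in the mutant, giving a log2 ratio of −0.61 (95% interval −0.72 to −0.51). In LI cells *Lalba* was again the 1 gene called, of 47 with enough UMIs and beside 1.03% of all genes called lower. It was at 78.7 and 94.6 CPM in WT and at 42.7 and 41.8 CPM in the mutant, giving a log2 ratio of −1.03 (95% interval −1.23 to −0.84). In cluster 11, where 43 genes of the list had enough UMIs and 2.7% and 3.17% of all genes were called higher and lower, the list had 1 gene called higher, *Elf5*, a transcription factor of alveolar differentiation (0.73, 0.15 to 1.28), and 2 called lower, the oncostatin M receptor gene *Osmr* (−0.84, −1.39 to −0.32) and the kinase gene *Tyk2* (−0.73, −1.86 to 0.24). *Elf5* rested on 92 UMIs in WT and 39 in the mutant. It is also on the LP marker list, at 315 CPM in WT LP cells and 19.7 CPM in WT ML cells. How many *Elf5* UMIs of cluster 11 or of ML cells as a whole came from LP cells was not tested. *Tyk2* rested on 65 and 10 UMIs and its interval includes 0. Of these calls, only that of *Lalba* in LI held without each of the 4 libraries. *Cav1* in ML was at −0.52 without WT library B and −0.54 without mutant library B, and *Lalba* in LP was at −0.36 without WT library B and −0.54 without mutant library A, which are all below 1.5-fold. *Lalba* in ML was at −0.30 without mutant library B, below 1.5-fold, and at −1.38 without mutant library A. In cluster 11 *Elf5* was at 0.51 without mutant library B and *Osmr* at −0.47 without mutant library A, both below 1.5-fold, and *Osmr* was at −1.48 without mutant library B. *Elf5* and *Tyk2* fell under the minimum of 50 UMIs without either WT library. Among the 16 other target genes with enough UMIs in ML cells the median log2 ratio was 0.02, and the values ran from −0.76 for *Lalba* and −0.45 for *Cited1*, a transcriptional coregulator gene, to 0.26 for *Elf5* and 0.28 for *Areg*, the amphiregulin gene, beside 0.70 for *Cish*.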

How the data were processed

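The deposited table held 1 value per gene and cell in the unit signal, with the library, genotype, cluster and class of each cell. Per the submitters' processing notes the tools were CASAVA 1.8, bcl2fastq 2.20 and GSNAP, with GRCm38. The authors scaled every cell by its own factor, and clusters came from Seurat in Partek Flow. Dividing by the smallest nonzero value of the cell gave whole numbers within 0.02 for 100% of nonzero values. These UMIs were summed per library and cluster (Python 3.11.15, numpy 2.4.6, scipy 1.17.1), and doublet scores came from scrublet in scanpy 1.11.5. The table gives no replicate number for a library, so A and B are names only.

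The members and lists were chosen with earlier results of these data known. Named were the 7 members, pathway genes that met the rule in LP, LI, ML or cluster 11, and for each member the 3 genes of highest Pearson correlation. Pathway genes given as examples in ML cells (*Socs3*, *Jak1*, *Stat3*, *Cited1*, *Elf5* and *Areg*) were chosen after their values were seen. The rule was tested on simulated data, and no error rate from these is given here. Of the pathway list, *Csh1* and *Lnk* matched no row. No cell was left out unless stated, and doublets were left in.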

Additional observations from a re-analysis of the deposited data

How the results depend on the processing

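No paired analysis was possible because the table carries no replicate numbers and no test was made. The number of members called in LP cells stayed at 0 under every alternative that was run. In ML cells it was 2 at the smaller fold that was tried and 0 at a fold of 2, in LI cells it was 0 at a fold of 2, and in cluster 11 it was 2 at the smaller fold. Leaving out 1 library gave 0 to 1 members in cluster 11, with *Cish* called without mutant library B (a log2 ratio of 0.69), and no other count in LP, LI or ML changed when a library was left out. The calls in single clusters and of pathway genes, with each library left out after the data were seen, are given beside those results. The *Cish* ratio in ML cells ran from 0.65 to 0.76 over the alternatives. For *Stat5b* the mutant ML over LP ratio turned from −0.07 to 0.25 with TMM factors, which rescale all genes alike. Leaving out the cells whose doublet scores were in the top 6% moved the *Prlr* ratio in LP from −0.13 to −0.28, the *Jak2* ratio in LI from 0.22 to 0.47 and the WT *Prlr* ratio of ML over LP from 3.02 to 3.45. The cause was not tested. Of the 3 genes most like each member, between 0 and 3 remained with Spearman's correlation or a minimum of 50 CPM. Genes under 50 CPM, such as the 3 of *Ghr* at 31.0 to 37.3 CPM, could not remain at that minimum, so their loss there was fixed in advance. Depth limits the rarer values: the lowest total of a member over all cells was 1459 UMIs, for *Ghr*.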
